A study of Mus musculus with 30 samples.

Results

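The immediate early genes of the AP-1 and EGR families were described in blood-forming cells of mouse bone marrow. Members were the genes whose symbol in the count tables was Fos, Fosb, Jun, Junb, Jund, Egr1, Egr2, Atf3, Ier2 or Dusp1. All 10 were found among the 55471 genes listed. All 10 passed the filter on low counts in hematopoietic stem cells (HSCs), and 9 passed it in multipotent progenitors (MPPs), where Atf3 did not.

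RNA was sequenced from sorted HSCs and MPPs of C57BL/6 mice treated with MTP10-HDL or with phosphate-buffered saline (PBS). The agent MTP10-HDL packs muramyl tripeptide, which cells sense through Nod2 as a piece of bacterial wall, into a nanoparticle built from high-density lipoprotein. The HSC libraries were 6 from mice given MTP10-HDL and 7 from mice given PBS, and the MPP libraries were 3 with MTP10-HDL and 2 with PBS. Each RNA library was a pool of 4 mice, so p-values measure the spread between pools and not between single mice. For the MPP samples the labels describe 3 injections within 5 days and collection on the following day, whereas the sources used here give no schedule for the HSC RNA samples. Cells were sorted by flow cytometry after lineage-positive cells had been depleted with magnetic beads. The series also holds 12 chromatin accessibility samples, 3 per group, that were not analysed here.

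Immediate early genes are transcribed within minutes of a stimulus and need no new protein synthesis for it. Serum response factor with its ternary complex partners, and CREB, are the best known activators of their promoters, downstream of MAP kinases. Fos and Jun proteins dimerise to form AP-1, EGR proteins are zinc finger factors, and both classes are also induced when tissue is dissociated and cells are sorted.

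Promoter sequence is shown for Fos, the best known of these genes, for the AP-1 subunit Junb, for the only member with a full CREB element in its window (Dusp1), and for the member listed at 0 in all MTP10-HDL MPP libraries (Atf3). Each line holds the 250 bases before the RefSeq gene start on GRCm38.p6, read 5′ to 3′ on the gene's strand, and capitals mark TGACGTCA, the CREB element. Fos lies on the plus strand at chr12:85473640-85473889. The windows on the minus strand are chr8:84978749-84978998 for Junb, chr17:26508473-26508722 for Dusp1 and chr1:191183334-191183583 for Atf3.
Fos: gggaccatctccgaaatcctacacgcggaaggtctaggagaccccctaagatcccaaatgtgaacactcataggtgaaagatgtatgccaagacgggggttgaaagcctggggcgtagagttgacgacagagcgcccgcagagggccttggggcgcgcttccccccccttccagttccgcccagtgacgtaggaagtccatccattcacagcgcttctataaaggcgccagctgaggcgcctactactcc
Junb: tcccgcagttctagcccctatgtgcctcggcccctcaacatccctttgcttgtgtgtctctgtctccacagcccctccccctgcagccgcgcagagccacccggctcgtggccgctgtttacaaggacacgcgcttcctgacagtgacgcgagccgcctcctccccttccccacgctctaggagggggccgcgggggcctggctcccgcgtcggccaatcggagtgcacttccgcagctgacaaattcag
Dusp1: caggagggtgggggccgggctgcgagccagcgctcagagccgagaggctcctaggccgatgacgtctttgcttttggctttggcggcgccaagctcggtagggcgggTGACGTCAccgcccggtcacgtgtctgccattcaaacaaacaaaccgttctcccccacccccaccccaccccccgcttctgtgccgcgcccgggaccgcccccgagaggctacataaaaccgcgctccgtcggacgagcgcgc
Atf3: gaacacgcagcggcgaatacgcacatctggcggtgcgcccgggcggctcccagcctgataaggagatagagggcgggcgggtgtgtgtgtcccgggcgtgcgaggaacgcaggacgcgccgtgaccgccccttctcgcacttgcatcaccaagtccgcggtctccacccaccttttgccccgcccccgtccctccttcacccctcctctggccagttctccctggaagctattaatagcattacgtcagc

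Promoter windows from RefSeq were used for 8 of the 10 members, all but Egr1 and Ier2. In the 250 bases upstream, on both strands, TGACGTCA was present for 1 member, Dusp1, at 143 bases before the start, and in 1.55% of 32851 windows of all genes. The CArG box, the serum response factor element (CC, 6 of A or T, GG), was present only for Egr2 among these members, and in 1.47% of all windows. The matches for Egr2 were a single CCATATATGG site, 72, 73 and 133 bases before 3 annotated starts, and CCTTTTTTGG 72 bases before another. These starts lie inside the gene span given below for Egr2. GCGNGGGCG, an EGR element, was present for Fosb as GCGGGGGCG 50 bases before the start and in 4.7% of all windows. TGANTCA, the AP-1 element, was in none of the members' windows and in 6.75% of all windows. No match of one motif overlapped a match of another in these members, and absence refers only to these letters in these windows.

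HSC libraries held 5467455 to 7641976 counts with MTP10-HDL and 4064155 to 7879858 with PBS. MPP libraries held 17555267 to 32769369 counts with MTP10-HDL, and 11252479 and 14691375 with PBS. The members took 0.0156% to 0.0552% of HSC counts with MTP10-HDL and 0.00972% to 0.219% with PBS. Levels below are CPM, the count divided by a library size scaled by edgeR's TMM method, and they are compared within a cell type only because the library kits differed. The 12 stem and progenitor markers were all above 0 in every library, with a sum of 1910 to 3110 CPM in MTP10-HDL HSCs against 1980 to 3730 CPM in PBS HSCs. The B cell markers summed to 2350 to 39800 CPM in MTP10-HDL HSCs and 2090 to 173000 CPM in PBS HSCs. In bulk samples fewer cells of a type and less RNA per cell cannot be told apart.

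In HSCs, all 10 genes had a lower fitted level with MTP10-HDL than with PBS, but none passed the test. Fold changes ran from -2.32 for Fosb to -0.17 for Egr2 on the log2 scale, with a median of -1.52 against -0.02 over all genes tested. A log2 fold change below 0 was found for 52.3% of all genes, and one under -1 for 7 members and 6.08% of all genes. By edgeR's quasi-likelihood test with Benjamini-Hochberg adjustment at a false discovery rate (FDR) of 0.05, 0 of 10 members and 0% of 16631 genes were called. At an unadjusted p under 0.05, 6 members were lower (Fos, Fosb, Jun, Junb, Jund and Egr1), against 4.47% of all genes that were lower, 4.36% higher and 8.83% in either direction. At that level DESeq2 gave 7 members and limma voom 0, with the share of all genes not given for those fits. Values of the groups overlapped for every member, while 0.168% of all genes were lower with no overlap, and the 3 PBS libraries numbered 2, 3 and 4 carried the high PBS values for all members but Egr2 and Atf3. By limma voom the median was -0.9.

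Fos (ENSMUSG00000021250, chromosome 12, 85473890 to 85477274) encodes the founding Fos partner of AP-1. In HSCs it had 9.89, 24 and 70.3 CPM with MTP10-HDL and 1.54, 43.2 and 305 CPM with PBS (lowest, median and highest). PBS libraries 2, 3 and 4 held 305, 245 and 302 CPM, while the other 4 PBS libraries lay below the highest MTP10-HDL library. Fos had a log2 fold change of -1.98 ± 0.93 (SE; edgeR adjusted p = 0.562), against -0.47 with limma voom and a difference in mean log2 CPM of -0.46 (exact permutation p = 0.735, n = 6 and 7). The mean levels were 33 ± 24.7 CPM with MTP10-HDL and 131 ± 145 CPM with PBS (SD, n = 6 and 7).

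In MPPs, Fos had 15.4, 137 and 28.7 CPM in MTP10-HDL libraries 1, 2 and 3, against 26.1 and 762 CPM in PBS libraries 2 and 3. Only PBS 3 exceeded all MTP10-HDL libraries, and MTP10-HDL 2 stood above the others of its group. Fos there had a log2 fold change of -2.7 ± 1.25 (SE; edgeR adjusted p = 0.811).

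Fosb (ENSMUSG00000003545, chromosome 7, 19302696 to 19310118) encodes a close relative of Fos. It had 11.7, 23.3 and 73.3 CPM with MTP10-HDL in HSCs, and 7.93, 28.6 and 366 CPM with PBS (lowest, median and highest). The same 3 PBS libraries were high, at 366, 313 and 361 CPM, and no other PBS library was above 28.6 CPM. Fosb showed the lowest HSC fold change of the members, at -2.32 ± 0.79 on the log2 scale (SE; edgeR adjusted p = 0.435).

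In MPPs, Fosb had 0.737, 16.5 and 0.88 CPM with MTP10-HDL, against 4.56 and 229 CPM with PBS. MTP10-HDL 2 lay between the PBS libraries. Its log2 fold change of -4.25 ± 1.63 (SE) was the lowest among the tested members and had an edgeR adjusted p of 0.76. Fosb reads per Fos read ranged from 0.0307 to 0.121 in MTP10-HDL MPPs and were 0.175 and 0.3 in PBS MPPs. In HSCs that ratio was 0.441 to 1.79 in the MTP10-HDL libraries, 1.2, 1.28 and 1.19 in PBS 2, 3 and 4, 1.73 and 0.648 in PBS 1 and 5, and 11.1 and 5.14 in PBS 6 and 7, which held only 14 and 7 Fos reads.

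Jun (ENSMUSG00000052684, chromosome 4, 95049036 to 95052222) encodes the main DNA-binding partner of Fos. With MTP10-HDL it had 16.4, 27.9 and 59.8 CPM in HSCs, against 9.03, 64 and 271 CPM with PBS (lowest, median and highest). PBS 2, 3 and 4 held 271, 155 and 240 CPM, PBS 5 held 64 CPM, and the remaining PBS libraries lay within or below the MTP10-HDL range. Jun had a log2 fold change of -1.76 ± 0.65 (SE; edgeR adjusted p = 0.48). In MPPs it had 24.4, 111 and 42.2 CPM with MTP10-HDL and 56.5 and 350 CPM with PBS, with a log2 fold change of -1.78 ± 0.79 (SE; edgeR adjusted p = 0.804).

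Junb (ENSMUSG00000052837, chromosome 8, 84976909 to 84978748), a Jun family member that can restrain Jun, was narrow with MTP10-HDL in HSCs, at 6.65, 7.72 and 9.95 CPM. With PBS it had 2.86, 10.3 and 42.4 CPM (lowest, median and highest). The high libraries were again PBS 2, 3 and 4, at 42.4, 27.7 and 37.3 CPM. Junb had a log2 fold change of -1.24 ± 0.51 (SE; edgeR adjusted p = 0.516). In MPPs its levels were 25.1, 88.6 and 36.5 CPM with MTP10-HDL and 25.8 and 172 CPM with PBS, and the log2 fold change was -0.98 ± 0.76 (SE; edgeR adjusted p = 0.889).

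Jund (ENSMUSG00000071076, chromosome 8, 70697739 to 70700616) encodes a Jun protein that is usually less inducible. It was low in HSCs, with 11 to 38 counts per library with MTP10-HDL and 9 to 155 with PBS. Its levels were 1.95, 3.34 and 5.02 CPM with MTP10-HDL and 1.45, 6.98 and 20.7 CPM with PBS (lowest, median and highest). Of the 10 members Jund had the smallest exact permutation p for HSC log2 CPM (p = 0.0705, 1716 arrangements, two-sided, n = 6 and 7), with a log2 fold change of -1.62 ± 0.52 (SE; edgeR adjusted p = 0.395). In MPPs it had 9.32, 34.9 and 6.16 CPM with MTP10-HDL and 15.6 and 89.5 CPM with PBS, and a log2 fold change of -1.64 ± 0.84 (SE; edgeR adjusted p = 0.819).

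The 3 Jun genes have no introns, so gene length was used to give their levels per kilobase. Other differences between genes in how well they are read were not corrected. In HSCs the median level was 8.75 CPM per kb for Jun, 4.19 for Junb and 1.16 for Jund with MTP10-HDL, and 20.1, 5.59 and 2.43 CPM per kb with PBS. Jun was the highest of the 3 in 12 of 13 HSC libraries and Jund the lowest in all 13. In MPPs the median was 13.2 CPM per kb for Jun, 19.8 for Junb and 3.24 for Jund with MTP10-HDL, and 63.8, 53.8 and 18.2 CPM per kb with PBS. Junb was above Jun in all 3 MTP10-HDL MPP libraries and Jun above Junb in both PBS libraries, a difference in order that was not tested. Jund was the lowest in all 5.

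**Figure D1:**
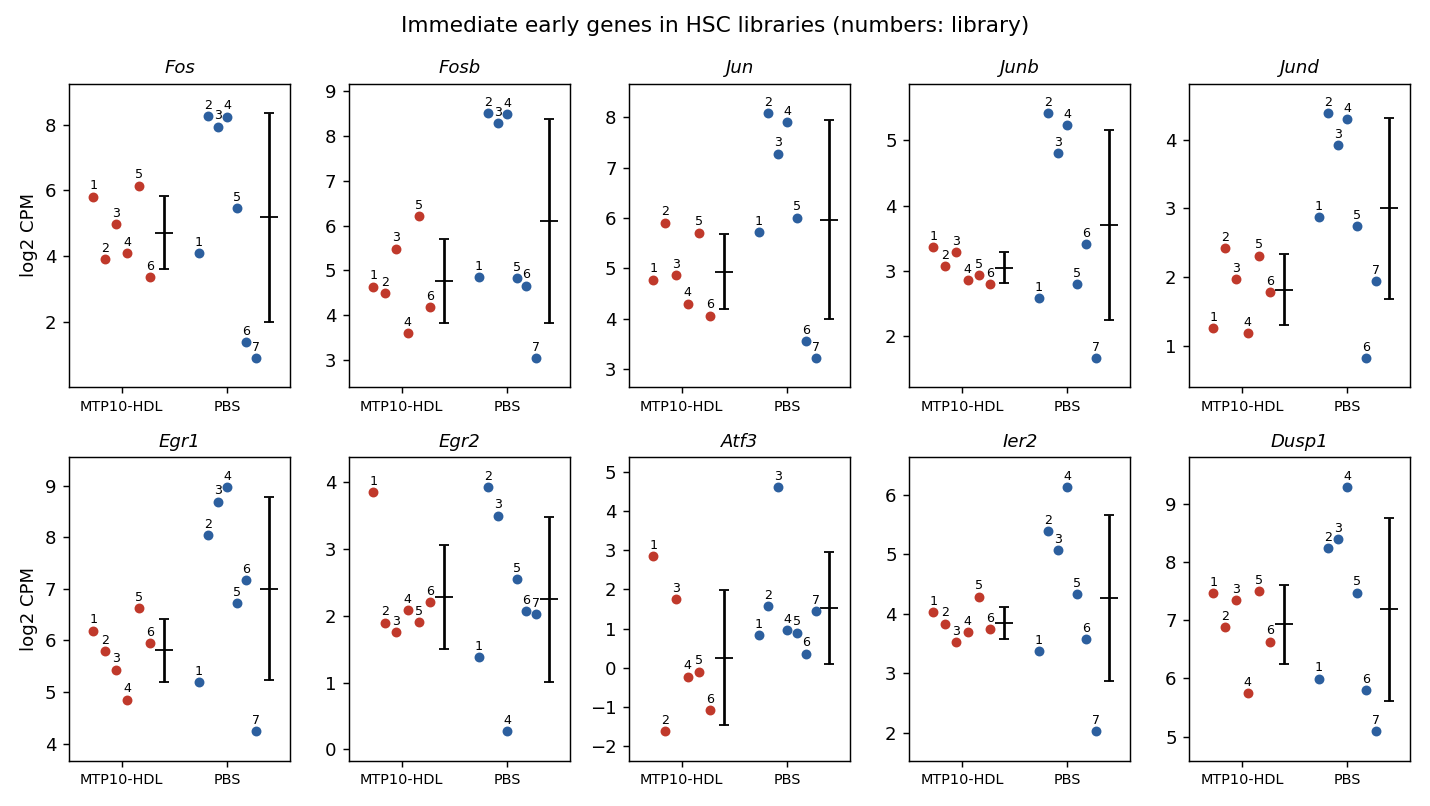
Level of each gene in every HSC library, as log2 CPM (TMM scaled, prior count 2), with MTP10-HDL left of PBS. Each point is a library with its number, the black bars are mean and SD, and PBS 2, 3 and 4 lie above the other libraries for most genes.

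Egr1 (ENSMUSG00000038418, chromosome 18, 34861207 to 34864956) encodes a zinc finger factor reported to hold stem cells in the marrow. In HSCs it had 28.6, 58.2 and 98.6 CPM with MTP10-HDL and 18.5, 143 and 505 CPM with PBS (lowest, median and highest). PBS 2, 3 and 4 held 264, 414 and 505 CPM, and PBS 5 and 6, at 106 and 143 CPM, also lay above every MTP10-HDL library. The mean was 59.9 ± 24.3 CPM with MTP10-HDL and 212 ± 189 CPM with PBS (SD, n = 6 and 7). Egr1 had the lowest adjusted p of the members in HSCs, with a log2 fold change of -1.83 ± 0.58 (SE; edgeR adjusted p = 0.387).

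In MPPs, Egr1 had 12.1, 53.7 and 20.4 CPM with MTP10-HDL, against 24.1 and 351 CPM with PBS. PBS 2 lay inside the MTP10-HDL range and PBS 3 above it. Egr1 had there a log2 fold change of -2.71 ± 0.98 (SE; edgeR adjusted p = 0.736).

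Egr2 (ENSMUSG00000037868, chromosome 10, 67534469 to 67542188), a related zinc finger factor, departed from the other members. In HSCs it had 3.05, 3.66 and 14.1 CPM with MTP10-HDL and 0.878, 3.86 and 14.9 CPM with PBS (lowest, median and highest). MTP10-HDL 1 was the high library of its group, PBS 2 and 3 held 14.9 and 11 CPM, and PBS 4, high for most members, was the lowest at 0.878 CPM. Counts were low, at 21 to 82 per library with MTP10-HDL and 7 to 68 with PBS, so counting error is large here. Egr2 had a log2 fold change of -0.17 ± 0.57 (SE; edgeR adjusted p = 0.938).

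In MPPs, Egr2 had 0, 17 and 1 counts with MTP10-HDL, against 27 and 30 counts with PBS, or 0, 0.603 and 0.055 CPM against 1.84 and 2.65 CPM. The groups did not overlap, as for Atf3, which was not tested, and for 12.3% of all genes tested in this small design. Egr2 passed the low-count filter in MPPs only through its PBS libraries, so its lower level with MTP10-HDL is not independent of that filter. Its log2 fold change was -3.3 ± 1.47 (SE; edgeR adjusted p = 0.803), and it remained lower, at -3.02, without PBS 3.

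Atf3 (ENSMUSG00000026628, chromosome 1, 191170296 to 191183333) encodes a stress-induced factor that can repress inflammatory genes. In HSCs it was near the limit of counting, at 0, 0.572 and 6.86 CPM with MTP10-HDL and 0.965, 1.63 and 24.2 CPM with PBS (lowest, median and highest). PBS 3 held the highest value and MTP10-HDL 1 the next, and the other libraries were at or below 3.05 CPM. Atf3 had a log2 fold change of -1.42 ± 0.98 (SE; edgeR adjusted p = 0.673), which turned to 0.08 without PBS 3.

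In MPPs, Atf3 had 0 counts in all 3 MTP10-HDL libraries and 4 and 246 counts in the PBS libraries, or 0.272 and 21.8 CPM. It failed the low-count filter there, and no fold is given. The exact permutation p was 0.1, the smallest that 10 arrangements of 3 against 2 libraries allow.

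Ier2 (ENSMUSG00000053560, chromosome 8, 84661331 to 84662852), a small nuclear protein of the immediate early response, had 11.2, 13.5 and 19.2 CPM with MTP10-HDL in HSCs. With PBS it had 3.74, 19.9 and 69.8 CPM (lowest, median and highest). High values of 41.5, 33.1 and 69.8 CPM came from PBS 2, 3 and 4, and PBS 7 was the lowest library. Ier2 had a log2 fold change of -0.92 ± 0.47 (SE; edgeR adjusted p = 0.576), which was -0.48 without PBS 4. In MPPs it had 34.9, 130 and 43.6 CPM with MTP10-HDL and 40.8 and 194 CPM with PBS, with a log2 fold change of -0.76 ± 0.72 (SE; edgeR adjusted p = 0.908).

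Dusp1 (ENSMUSG00000024190, chromosome 17, 26505591 to 26508472) encodes a phosphatase that switches off MAP kinases. In HSCs it had 53.4, 140 and 180 CPM with MTP10-HDL and 33.7, 177 and 626 CPM with PBS (lowest, median and highest). PBS 2, 3 and 4 held 302, 335 and 626 CPM, and no other PBS library was above 177 CPM. Dusp1 had a log2 fold change of -0.79 ± 0.54 (SE; edgeR adjusted p = 0.668), which was -0.3 without PBS 4. In MPPs it had 15.1, 53 and 28 CPM with MTP10-HDL and 22.3 and 273 CPM with PBS, with a log2 fold change of -2.21 ± 0.88 (SE; edgeR adjusted p = 0.787).

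**Figure D2:**
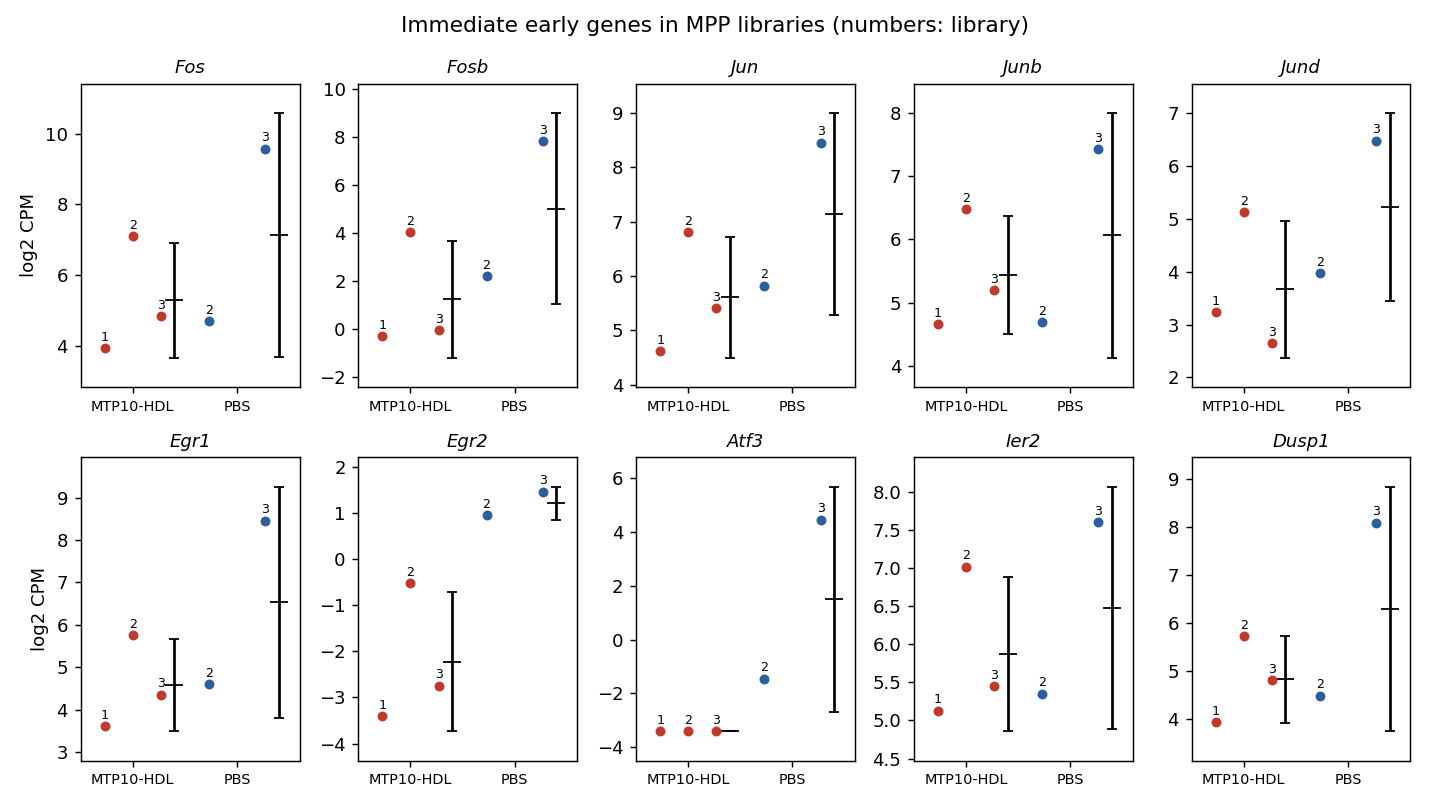
Level of each gene in every MPP library, as log2 CPM (TMM scaled, prior count 2), with MTP10-HDL left of PBS. Each point is a library with its number and black bars are mean and SD, and PBS 3 is the highest library for all 10 genes.

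In MPPs, the 9 tested members all had a lower fitted level with MTP10-HDL, and none passed the test. Egr2 was among these 9 and had passed the low-count filter only through its PBS libraries. The median log2 fold change was -2.21, against 0.02 over all genes, of which 48% were below 0. By edgeR's quasi-likelihood test, 0 of 9 members and 0% of 15449 genes were called at an FDR of 0.05. Fosb, Egr1 and Dusp1 were lower at an unadjusted p under 0.05, against 4.06% of all genes that were lower, 2.17% higher and 6.23% in either direction. DESeq2 put 4 members and limma voom 1 at that level, with the share of all genes not given for those fits. Fold changes under -1 were found for 7 members and 8.27% of all genes. PBS 3 was the highest library for 10 of 10 members, PBS 2 lay within the MTP10-HDL range for all but Egr2 and Atf3, and MTP10-HDL 2 was the highest of its group for every member detected there.

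The difference between the responses of MPPs and HSCs was tested in a fit of all 18 libraries, and 0 of 10 members passed by edgeR's quasi-likelihood test, against 0.00409% of 24470 genes. An unadjusted p under 0.05 was found for 2 members (Egr2 and Atf3), against 3.86% of all genes. Counts of both were very low in MTP10-HDL MPP libraries, at 0, 17 and 1 for Egr2 and 0 throughout for Atf3. Egr2 had a difference of -3.09 ± 1.26 on the log2 scale (SE, MPP minus HSC), which was -5.84 without MTP10-HDL 2 of MPPs. No difference is given for Atf3, since its MTP10-HDL MPP libraries were all at 0. PBS 2 and 3 of MPPs held 4 and 246 Atf3 counts, so its PBS level there came almost wholly from PBS 3. Differences for the AP-1 subunits Jun, Junb and Jund were 0.02, 0.3 and 0.01, with SEs of 1.13, 0.94 and 0.81, so differences of either sign are within their error.

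PBS 2, 3 and 4 were among the 3 highest HSC libraries for 9, 10 and 8 of the 10 members. The remaining places went to MTP10-HDL 1, for Egr2 and Atf3, and to MTP10-HDL 3, for Atf3. PBS 7 was the lowest library for 7 members. Within the PBS group the SD of log2 CPM had a median of 1.52 over the members, against 0.51 over all genes, and within the MTP10-HDL group 0.71 against 0.47. Fos varied most in PBS, with an SD of 3.18 on the log2 scale.

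Without PBS 2, 3 and 4, a comparison chosen after seeing the data, 2 HSC members had a lower and 8 a higher fitted level with MTP10-HDL. Fold changes then ran from -0.4 for Jund to 1.09 for Fos on the log2 scale, with a median of 0.36. Without PBS 3, 8 of the 9 MPP members tested were higher, the median was 0.41, and Fos stood at 1.21. The median thus changed sign in both cell types, as the plot of fold changes with and without these libraries shows. The libraries left out were those with the highest member levels, so a rise in the fold changes followed from the choice. In MPPs only PBS 2 then remained as a PBS library.

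**Figure D3:**
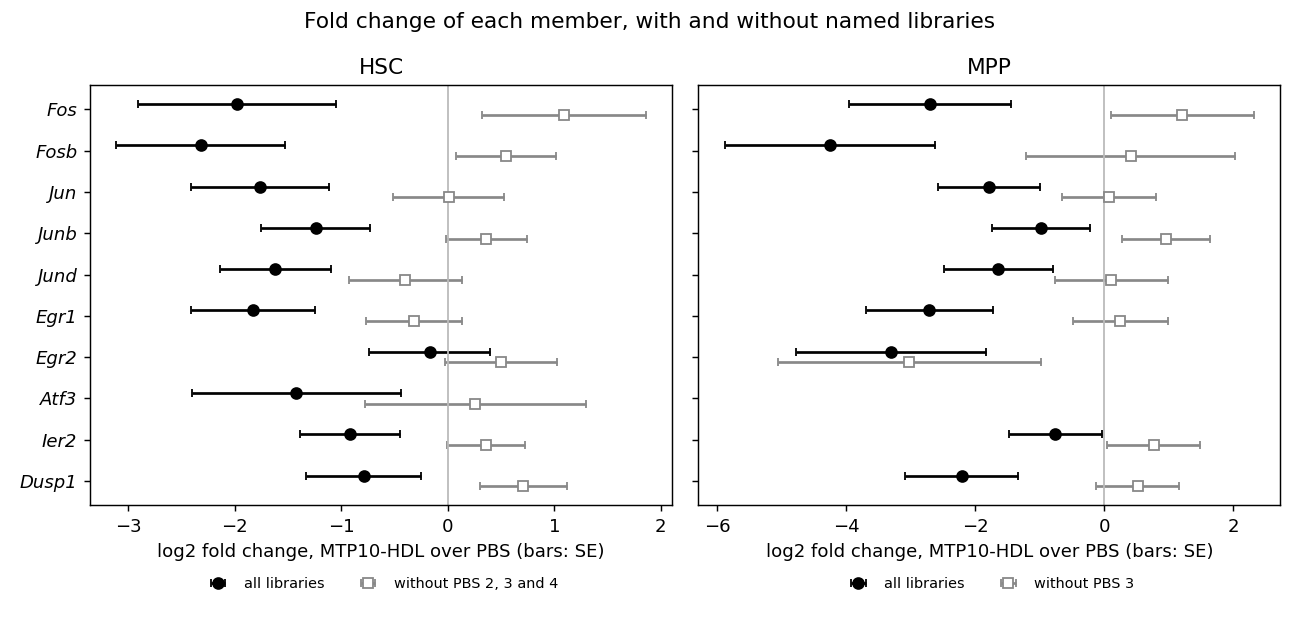
Log2 fold change of each gene, MTP10-HDL over PBS, in HSCs (left) and MPPs (right), with bars for the SE. Filled points use all libraries, and open squares leave out PBS 2, 3 and 4 in HSCs or PBS 3 in MPPs, where most genes lie above 0.

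HSC libraries also differed in technical measures. The 4 libraries with the fewest detected genes were MTP10-HDL 2 and 3 and PBS 1 and 4, and the 4 with the highest ribosomal RNA share were MTP10-HDL 1 and 4 and PBS 2 and 3. Among the libraries of fewest detected genes, 9 members were lower with MTP10-HDL, with a median difference of -1.23 on the log2 scale. There PBS 4 carried the difference, at 1.72 for the mean log2 CPM of the members centred per gene. PBS 1, at -0.57, lay between MTP10-HDL 2 and 3, at -0.6 and -0.22. Among the libraries of highest ribosomal RNA share all 10 were lower, with a median of -2.42. In the remaining 5 libraries (MTP10-HDL 5 and 6, PBS 5, 6 and 7), 2 members were lower and 8 higher, with a median of 0.44, so the lower levels did not hold there. Members were thus mostly lower only in the technical groups that held PBS 2, 3 or 4. With technical group as a term in the fit, 9 of 10 members were lower, the median was -1.3 and 0 were called. Ribosomal RNA also separated the MPP groups, at 0.508% to 0.915% of counts with MTP10-HDL, and 1.26% and 1.47% with PBS, and its part in the MPP result was not tested.

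**Figure D4:**
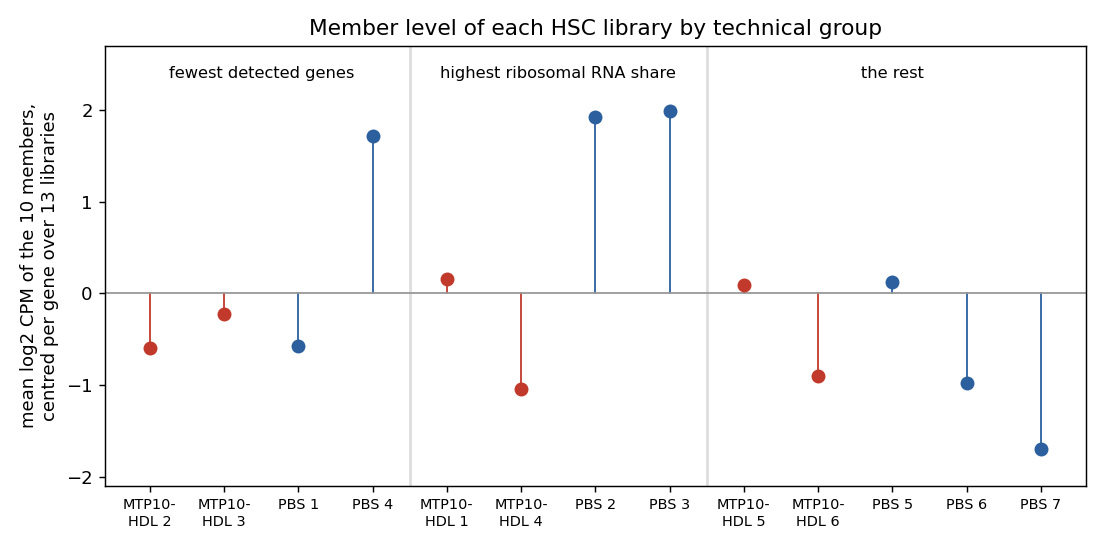
Mean log2 CPM of the 10 genes, centred per gene over 13 libraries, for each HSC library within its technical group. Red stems are MTP10-HDL and blue stems PBS, and PBS 2, 3 and 4 stand at 1.92, 1.99 and 1.72. No MTP10-HDL library exceeds 0.16, and PBS 1, 5, 6 and 7 do not either, at -0.57, 0.12, -0.98 and -1.7.

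Markers of other cells were set beside these libraries. B cell markers summed to 173000, 34500 and 18800 CPM in PBS 2, 3 and 4, and to 69700 CPM in PBS 1, where the mean member level was -0.57 on the centred log2 scale. Immunoglobulin genes took 0.374% to 4.9% of counts in MTP10-HDL HSC libraries, against 19.8%, 5.09% and 2.45% in PBS 2, 3 and 4 and 7.83% in PBS 1. Monocyte and macrophage markers ranged from 714 to 8510 CPM with MTP10-HDL and from 445 to 3540 CPM with PBS, and the highest library was MTP10-HDL 1. Erythroblast markers ranged from 60.4 to 127 CPM with MTP10-HDL and from 123 to 428 CPM with PBS. In MPPs, B cell markers summed to 20600 to 37500 CPM with MTP10-HDL, and to 44500 to 89200 CPM with PBS. Erythroblast markers in MPPs summed to 20.1 to 41.9 CPM with MTP10-HDL, against 62.4 CPM in PBS 2 and 100 CPM in PBS 3. None of the 10 B cell markers was at 0 in every library of a group, and the part of these cells in the result was not tested.

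Other genes of the same pathway were counted list by list. None of their genes passed the FDR in edgeR's test in either cell type. Among other immediate early genes, 25 of the 32 tested in HSCs and 27 of the 34 in MPPs were lower, with median log2 fold changes of -0.47 and -0.6, where 52.3% and 48% of all genes were below 0. At an unadjusted p under 0.05, 8 and 12 of them were lower and 0 higher, against 4.47% and 4.06% of all genes that were lower at that level. Without PBS 2, 3 and 4, 11 of 32 were lower in HSCs, and without PBS 3, 12 of 34 in MPPs.

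In HSCs the named genes of that list were Klf2, Ppp1r15a, Nr4a1 and Zfp36. Klf2, a factor of lymphocyte quiescence, had a log2 fold change of -2.13 ± 0.74 (SE; edgeR adjusted p = 0.446). Nr4a1, an orphan nuclear receptor, had 8.94 ± 7.17 CPM with MTP10-HDL and 34.8 ± 38.7 CPM with PBS (SD, n = 6 and 7). Zfp36, an RNA-binding protein that destabilises inflammatory transcripts, had -1.21 ± 0.48, and Ppp1r15a, an eIF2α phosphatase subunit, -1.02 ± 0.36 on the log2 scale (SE). Without PBS 2, 3 and 4 these stood at 0.02 for Zfp36, 0.22 for Nr4a1, -0.13 for Ppp1r15a and -1.2 for Klf2.

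In MPPs the named genes were Zfp36l1, Tnfaip3, Nfkbiz and Trib1. Tnfaip3, the A20 inhibitor of NF-kB, had 17.5, 11.7 and 16.9 CPM with MTP10-HDL and 25.9 and 45.5 CPM with PBS. Zfp36l1, a relative of Zfp36, had a log2 fold change of -0.99 ± 0.24 (SE; edgeR adjusted p = 0.429). Nfkbiz, which modifies NF-kB output, and Trib1, a pseudokinase, had -1.42 ± 0.43 and -1.02 ± 0.32 (SE). Without PBS 3 these were -0.75, -0.74, -0.54 and -0.88 for Tnfaip3, Zfp36l1, Nfkbiz and Trib1.

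Among the 12 other AP-1 and ATF subunits, the 10 tested in HSCs split into 5 lower and 5 higher, with a median of -0.02, and 0 had an unadjusted p under 0.05. In MPPs 8 of 11 were lower, with a median of -0.16, and 0 reached that level, while without PBS 3 the split was 5 lower and 6 higher. Batf, an AP-1 partner in lymphocytes, had a log2 fold change of 0.3 ± 0.2 in HSCs and 0.56 ± 0.4 in MPPs (SE). The other named genes were lower, with Atf4 at -0.35 ± 0.23, Maff at -0.48 ± 0.48 and Jdp2 at -0.28 ± 0.35 in HSCs (SE). In MPPs Batf2 stood at -1.23 ± 0.7, Atf4 at -0.22 ± 0.27 and Maff at -0.49 ± 0.64 (SE). Without PBS 2, 3 and 4, HSC values were 0.41 for Batf, 0.11 for Atf4, 0 for Maff and -0.57 for Jdp2. Without PBS 3, MPP values were 0.94 for Batf, -1.22 for Batf2, 0 for Atf4 and 0.52 for Maff.

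For upstream regulators 18 of 26 were higher in HSCs, with a median of 0.11, and 5 were higher at an unadjusted p under 0.05, against 4.36% of all genes. In MPPs 14 of 26 were higher and 1 was so at that level, against 2.17% of all genes. Mapkapk2, a kinase downstream of p38, had 130 ± 35.4 CPM with MTP10-HDL and 70.8 ± 17.6 CPM with PBS in HSCs (SD, n = 6 and 7), a log2 fold change of 0.88 ± 0.2 (SE; edgeR adjusted p = 0.206). In MPPs it had 159, 216 and 151 CPM with MTP10-HDL and 120 and 113 CPM with PBS, with a log2 fold change of 0.59 ± 0.23 (SE; edgeR adjusted p = 0.767). Mapk3, the kinase ERK1, was at 0.49 ± 0.14, and Map2k1 and Rps6ka1, kinases of the same cascade, at 0.38 ± 0.14 and 0.45 ± 0.18 in HSCs (SE). Without PBS 2, 3 and 4 Mapkapk2 stood at 1.12 and Mapk3 at 0.5.

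Feedback inhibitors split into 8 lower and 8 higher in HSCs, where Spry2 and Dusp5, which restrain receptor kinase and ERK signalling, had log2 fold changes of -0.87 ± 0.28 and -1.64 ± 0.54 (SE). Without PBS 2, 3 and 4 these stood at -0.9 for Spry2 and -0.27 for Dusp5. In MPPs 14 of 16 were lower, with a median of -0.28, while without PBS 3 the split was 7 lower and 9 higher, with a median of 0.01. Spry1 had 6.9, 6.6 and 7.7 CPM with MTP10-HDL and 7.01 and 32.4 CPM with PBS, and its log2 fold change of -1.47 was 0.01 without PBS 3. Heat shock and chaperone genes, a mixed list, split into 5 lower and 4 higher in HSCs, and 4 lower and 7 higher in MPPs. Hspa1b, an inducible Hsp70, had 10.9, 9.62 and 21.2 CPM in MPPs with MTP10-HDL and 29.5 and 40.3 CPM with PBS. Log2 fold changes in MPPs were -1.33 ± 0.37 for Hspa1b and -1.48 ± 0.64 for Hspa1a, also an inducible Hsp70 (SE). Hspe1 and Hspd1, mitochondrial chaperones, had log2 fold changes of 0.85 ± 0.28 and 0.6 ± 0.21 there (SE).

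**Figure D5:**
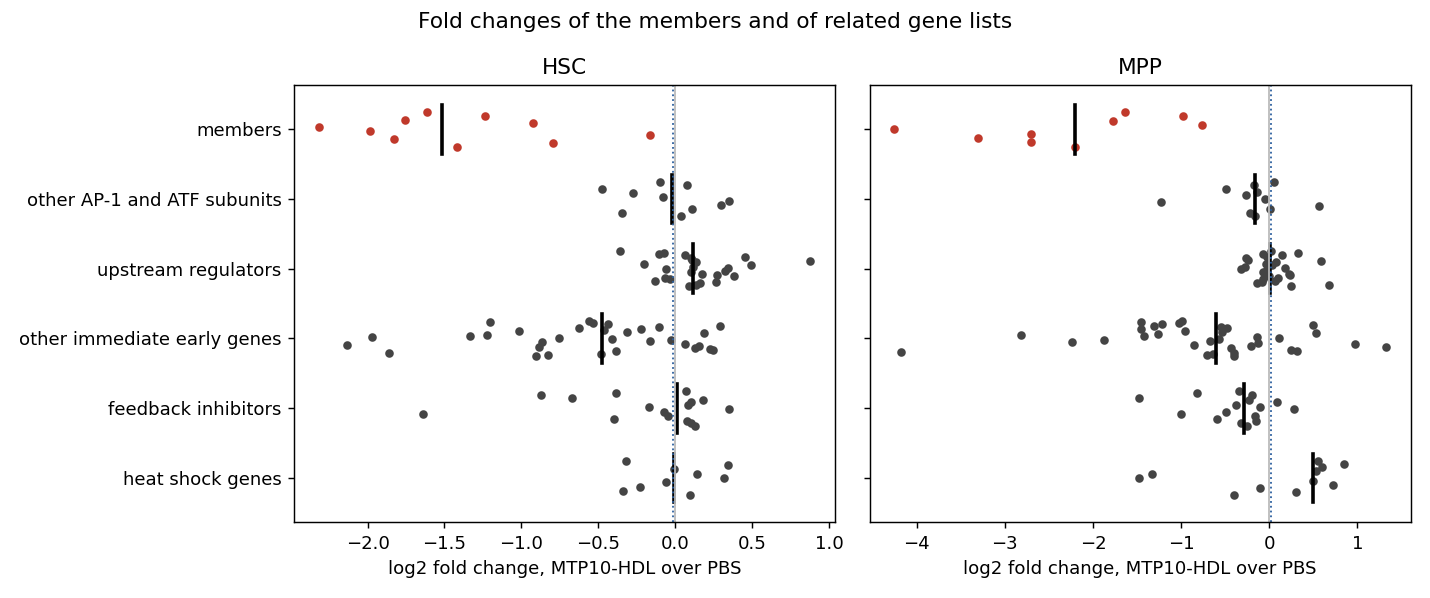
Log2 fold change, MTP10-HDL over PBS, of the 10 genes (red) and of each gene of 5 related lists (grey), in HSCs (left) and MPPs (right). Black bars are medians and the dotted line is the median of all genes tested, and the members lie lowest, with other immediate early genes next at medians of -0.47 and -0.6.

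The genes whose HSC profile was nearest to the mean profile of the members, of 9690 candidates with at least 10 CPM, were Zfp36, Klf6, Btg2, Rhob, Nfkbiz and Rgs1. Their root mean square difference from it over 13 libraries was 0.28 for Zfp36, 0.4 for Klf6, 0.54 for Btg2 and Rhob, and 0.55 for Nfkbiz and Rgs1, on the log2 scale. Dusp1, Junb and Ier2 were nearest to it among the members, at 0.45, 0.46 and 0.47, and Fos, Egr2 and Atf3 farthest, at 1.25, 1.28 and 1.34. Zfp36 had 70.8 to 235 CPM with MTP10-HDL and 52 to 557 CPM with PBS. PBS 2, 3 and 4 were the 3 highest libraries for 5 of these 6 genes, all but Btg2. These genes were chosen for nearness to a profile in which PBS 2, 3 and 4 stood highest, so that order follows from the choice. All 6 are also on the list of other immediate early genes.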

How the data were processed

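The authors deposited raw read counts per Ensembl gene in 1 table for each cell type, and these counts were used as deposited. The submitters' processing notes name, for mm10, CASAVA 1.8.2 with STAR 2.5.2b (HSC table), and STAR 2.7.2a, R 3.6.1 and DESeq2 1.24 (MPP table). Per the labels' protocols, HSC libraries were amplified complementary DNA read as single 50-base reads, and MPP libraries were poly-A selected and directional. The counter, its annotation and any strand option were not given in the sources used here, so reads of overlapping or antisense genes cannot be told apart. One HSC column, PBS 7, matches no sample title and was used as a member of its group. MPP PBS libraries are numbered 2 and 3.

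Each table was fitted alone in R 4.3.3 with edgeR 4.0.16 (TMM, filterByExpr, quasi-likelihood F test), with Benjamini-Hochberg adjustment over all genes tested and an FDR threshold of 0.05. A joint fit of 4 groups tested MPP minus HSC. Log2 CPM used a prior count of 2, and SEs were taken from the fold change and its F value. Single genes were also compared by exact permutation. Alternatives included DESeq2 1.42.0 and limma 3.58.1 voom. On simulated counts for HSCs (15608 genes), 81.5% of genes changed by 2 on the log2 scale were called, and for MPPs (14788 genes) 50.8%. The changed genes were drawn at random, so these shares do not carry over to the members, which varied more. In PBS libraries the median SD of log2 CPM was 1.52 over the members and 0.51 over all genes in HSCs. In MPPs it was 1.93 against 0.26. Members, lists, markers and motifs were chosen with earlier results of these data known. All members and the 6 nearest profiles are named. Other genes named were among the 4 of smallest p per list and cell type. Of upstream regulators, feedback inhibitors and heat shock genes, only some of those 4 were named. Gene positions and promoters came from RefSeq on GRCm38.p6. The labels do not say whether replicate numbers pair samples, and samples were not paired in the main fits. Correlations of same-numbered libraries ran from -0.1 to 0.42 in HSCs and were -0.4 and -0.14 in MPPs. With so few libraries these values cannot settle whether numbers mark pairs.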

Additional observations from a re-analysis of the deposited data

Results flagged for a closer look

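In HSCs, 20 groups of values, 1 for each gene and treatment, were examined for a library far from the others, and 2 held one. Chance gives about 1 in 20 groups for normally distributed values. CPM values were skewed and the groups shared the same libraries, so that rate need not hold here. Egr2 in MTP10-HDL library 1 stood at 14.1 CPM, with the next library of its group at 4.28 CPM, a gap of 0.889 of the group's range. Atf3 in PBS library 3 stood at 24.2 CPM, with the next at 2.64 CPM, a gap of 0.928 of the range.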

How the results depend on the processing

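In HSCs 0 members were called under each alternative that gave a test over all genes; values within technical groups had no test. Between 4 and 7 had an unadjusted p under 0.05 as single libraries were left out, and the median ranged from -1.7 to -1.32. The share of all genes at that level is not given for these fits. The median moved to 0.44 in the technical group of remaining libraries and to 0.36 without PBS 2, 3 and 4. Egr2 turned to 0.21 with limma voom, 0.05 with technical group as a term, 0.04 by exact permutation, 0.25 without PBS 2 and 0.06 without PBS 3, and ranged from -0.72 to 0.25 as single libraries were left out. Atf3 ranged from -2.46 to 0.08, the highest without PBS 3. HSC genes called numbered 0 in edgeR, 44 without a filter and 104 with DESeq2, and the all-gene median then shifted to -0.15 and -0.23.

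In MPPs 8 members were called without a low-count filter (Fos, Fosb, Jun, Junb, Jund, Egr1, Atf3 and Dusp1), with 345 genes called; leaving Atf3 aside, their SEs were 0.26 to 0.29, against 0.76 to 1.63 with the filter, and the cause was not tested. DESeq2 called 153 genes and 0 members. The median ranged from -3.34 to 0.41 as single libraries were left out. Without MTP10-HDL 2, 9 members had an unadjusted p under 0.05, against 0 without MTP10-HDL 1 or 3. The share of all genes at that level is not given for these fits. Egr2 stayed below 0, from -6.36 without MTP10-HDL 2 to -2.7. The other members ranged from -4.17 to 1.21 for Fos, -7.18 to 0.41 for Fosb, -2.61 to 0.07 for Jun, -1.8 to 0.96 for Junb, -2.75 to 0.11 for Jund, -3.63 to 0.25 for Egr1, -1.58 to 0.77 for Ier2 and -3.11 to 0.52 for Dusp1, each highest, and above 0, without PBS 3. With 1 PBS library left, that library was assumed to vary like the MTP10-HDL group. As single MPP libraries were left out, MPP minus HSC differences ranged from -2.11 to 3.16 for Fos, -4.77 to 2.69 for Fosb, -0.8 to 1.78 for Jun, -0.48 to 2.15 for Junb, -1.07 to 1.68 for Jund, -1.71 to 2.05 for Egr1, -0.59 to 1.66 for Ier2 and -2.23 to 1.28 for Dusp1, each highest without PBS 3 of MPPs, and from -5.84 to -2.49 for Egr2. Without HSC PBS 2, 3 and 4 they were -3.78 for Fos, -4.76 for Fosb, -1.76 for Jun, -1.29 for Junb, -1.21 for Jund, -2.35 for Egr1, -1.1 for Ier2 and -2.89 for Dusp1.

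With a replicate block, which is not a pairing the labels give, 0 members were called, with medians of -1.39 in HSCs and -1.17 in MPPs, where 59 genes were called. An HSC library correlated best with its own number for 2 of 6. Counts were low for Jund, Egr2 and Atf3 in HSCs and for Egr2 in MPPs, where counting error is large.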
